A study of Mus musculus with 8 samples.

Results

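The Hox genes of female mouse embryonic fibroblasts (MEFs) were examined: every protein-coding gene named Hoxa, Hoxb, Hoxc or Hoxd followed by a paralog number. The symbol decides membership, with no measured value in the rule, and gave 39 of the 46078 gene IDs in the deposited tables. On GRCm38 (mm10), 11 lay in the Hoxa cluster (chr6:52155590-52260880), 10 in the Hoxb cluster (chr11:96194316-96368256), 9 in the Hoxc cluster (chr15:102921103-103036852) and 9 in the Hoxd cluster (chr2:74668310-74765142). The question put to them was whether WT, Xist-deleted and hairpin-treated cells carried the same anterior-posterior code.

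Hox proteins are homeodomain transcription factors that give cells their position along the body axis. The order of the genes along a cluster follows the order of their expression from head to tail, so that genes of low paralog number mark anterior and genes of high paralog number posterior positions. Fibroblasts keep a Hox pattern of the body site they came from through many divisions in culture, Polycomb proteins hold the silent members off, and Trithorax proteins hold the active members on.

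The labels give the strain of all cells as 129S1/SvImJ by CAST/EiJ. The study's text names the 129 X chromosome as 129Sv4/Jae, and its reads were assigned by base differences between 129S1/SvImJ and CAST/EiJ. The cells were, per the study's text, clonal lines. In all of them the X chromosome of 129 origin is the inactive one. WT cells carried an intact Xist, whose long noncoding transcript covers and silences that X, and XiΔXist cells lacked it there. XiΔXist cells were also transduced with lentivirus and kept under puromycin, to carry either a scrambled hairpin (XiΔXist shSCR) or one against the transcription factor YY1 (XiΔXist shYY1), so both of these also lack Xist on the inactive X. The shYY1 samples carried a different hairpin each. Each group had 2 samples, which the authors merged before alignment, so every group is 1 pool with 1 column per allele. Only reads that cover a base differing between the strains were counted. No spread between replicates can be computed, and no difference below has a replicate check. A clone and its genotype cannot be told apart, nor can fewer cells that express a gene and less RNA per cell. The body site and the embryo from which each line was taken are not given in the sources used here.

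Autosomal reads with a known allele numbered 18745483 for WT, 21342574 for XiΔXist, 1470870 for shSCR and 1472083 for shYY1. Levels are CPM, counts scaled to 1000000 of those reads, with exact Poisson 95% intervals. A count of 3 reads, used as the limit for genes without a read, equals 0.16, 0.141, 2.04 and 2.04 CPM. All intervals and limits given here reflect counting error alone, because each group is 1 pool. PCR copies of a molecule are counted as separate reads, so the intervals can be too narrow even for that error. Xist stood at 1889 CPM in WT and 0.984 in XiΔXist, at 0 in shSCR and 4.08 in shYY1. Yy1 stood at 161 CPM in shSCR and 62.5 in shYY1, 2.58 times lower (95% interval 2.02 to 3.32). The fibroblast genes Vim and Col1a2 were abundant in all pools, at 3481 CPM or more and 1025 CPM or more. Dcn, another fibroblast gene, had 611 and 2192 reads in WT and XiΔXist and 0 and 1 in shSCR and shYY1. Between XiΔXist and WT, 8 of 9 fibroblast markers were tested, of which Dcn and Thy1 were higher and Col1a1 and Col1a2 lower, and the list summed to 6602, 4848, 7523 and 8836 CPM over the 4 pools. Summed markers of epithelium, blood, endothelium and muscle reached at most 19 CPM in any pool. The endothelial receptor Kdr had 55 reads in WT and 0 in XiΔXist, while Cdh5 had 12 and 47. Neural markers summed to 121, 40.2, 148 and 109 CPM, nearly all of it Map2, and Map2 was 2.97 times lower in XiΔXist than in WT (2.74 to 3.22). The part of these markers in the Hox results was not tested.

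Hox genes together gave 2489, 1473, 514 and 501 reads in WT, XiΔXist, shSCR and shYY1, which is 133, 69, 349 and 340 CPM. Of the 39 members, 21, 13, 24 and 25 had a read in these pools. No pool held a read of 9 members, among them Hoxa13, Hoxb13 and Hoxd13 at the posterior ends of their clusters. A member without a read has a Poisson upper bound of 0.197 CPM in WT and 0.173 in XiΔXist, but of 2.51 in either hairpin pool. 7 members reached 50 reads in a pool: Hoxa2, Hoxa9, Hoxb4, Hoxb7, Hoxb9, Hoxc10 and Hoxd8. The other 23 had between 1 and 49 reads in their deepest pool. A gene with few strain differences in its exons has few allelic reads whatever its expression, so that levels of different members are not strictly comparable, even per kilobase of exon.

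**Figure D1:**
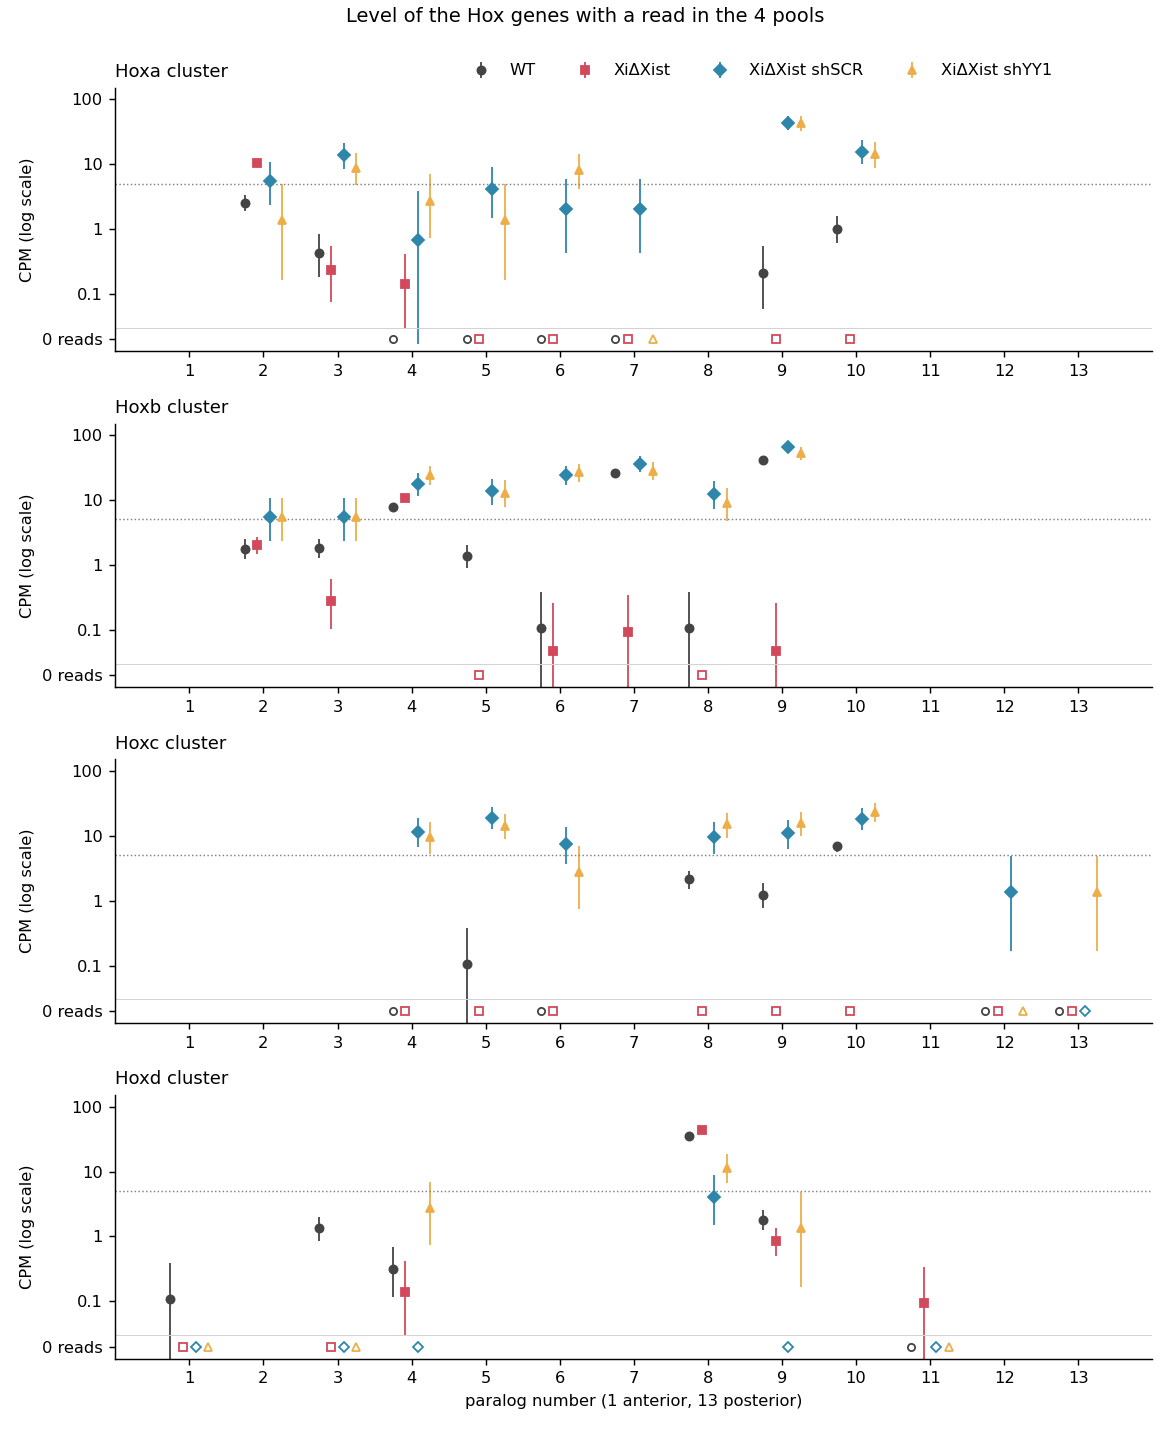
Level of the Hox genes with a read in at least 1 pool, in CPM of autosomal reads (log axis) against paralog number, 1 panel per cluster. Filled symbols with bars are levels with Poisson 95% intervals, open symbols mark pools without a read, and the dotted line is 5 CPM. XiΔXist has only open symbols in Hoxc and lies under 0.1 CPM at Hoxb5 to Hoxb9, while Hoxb7, Hoxb9 and Hoxc10 lie above 5 CPM in the other 3 pools.

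A member was placed above 5 CPM where its whole interval lay above that level and below where its whole interval lay under it. In WT, 5 members were above, Hoxb4, Hoxb7, Hoxb9, Hoxc10 and Hoxd8, and 34 were below. In XiΔXist only Hoxa2, Hoxb4 and Hoxd8 were above, and 36 were below. The pools thus shared Hoxb4 and Hoxd8, while 3 members were above in WT alone and Hoxa2 in XiΔXist alone. The highest paralog number above 5 CPM was 10 in WT and 8 in XiΔXist. In shSCR 14 members were above and in shYY1 13, with 8 undecided in each. The share of all genes above 5 CPM in each pool is not given here, so these counts cannot be set against other genes. Genes with GC-rich transcripts, as Hox genes are, had higher CPM in shSCR than in untreated XiΔXist. The median ratio was 4.43 and 19.3 in the GC groups 4 and 5 of 5. The part of this shift in the larger counts was not tested. Those above in both hairpin pools were 12: Hoxa9, Hoxa10, Hoxb4, Hoxb5, Hoxb6, Hoxb7, Hoxb9, Hoxc4, Hoxc5, Hoxc8, Hoxc9 and Hoxc10. No member was above in one hairpin pool and below in the other, but 12 were undecided in at least 1 of these pools. At their depth both 3 reads (0.421 to 5.96 CPM) and 13 reads (4.7 to 15.1 CPM) leave a member undecided. A difference of that size therefore cannot show by this measure. Ranked by CPM, the members with a read in either pool of a pair correlated with a Spearman rho of 0.87 between shSCR and shYY1 (27 genes). It was 0.36 between WT and XiΔXist (23 genes), 0.32 between WT and shSCR (28 genes) and 0.40 between WT and shYY1 (27 genes). XiΔXist had -0.22 with shSCR (27 genes) and -0.20 with shYY1 (26 genes). By this measure WT was thus about as far from the hairpin pools as from XiΔXist. These are descriptions across genes, and the members share libraries, depth and cluster.

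Per kilobase of exon, the 3 highest members in WT were Hoxb7 (16.7 CPM per kb), Hoxb9 (16.1) and Hoxd8 (12.6). In XiΔXist they were Hoxd8 (16 CPM per kb), Hoxa2 (5.94) and Hoxb4 (4.18). In both hairpin pools the order was Hoxb9, Hoxb7 and Hoxb6, at 25.4, 23.3 and 12.5 CPM per kb in shSCR and 20.3, 18 and 13.5 in shYY1. Hoxb9 was thus among the 2 highest in 3 pools and had 1 read in XiΔXist.

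The make-up of the Hox reads differed by cluster. Hoxb held 60.3% of them in WT (Wilson 95% interval 58.3 to 62.2), 19.1% in XiΔXist (17.2 to 21.2), 51.6% in shSCR (47.2 to 55.8) and 48.1% in shYY1 (43.8 to 52.5). Hoxd held 28.8%, 65%, 1.17% and 4.59%. Hoxc held 7.75% in WT, none of 1473 reads in XiΔXist, 22.4% in shSCR and 24% in shYY1. Hoxa held 3.17%, 15.8%, 24.9% and 23.4%. Without the members that share exon bases with other genes, Hoxa held 0.874%, 0%, 9.79% and 10.8%, and Hoxc held 2.9% in WT. As levels, Hoxd stood at 38.2 CPM in WT and 44.9 in XiΔXist, a ratio of 1.17 (1.06 to 1.29), so its larger share in XiΔXist came with a Hoxb level of 80 CPM in WT and 13.2 in XiΔXist. Hoxd stood at 4.08 CPM in shSCR and 15.6 in shYY1.

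The same reads were split by position in the cluster. Paralogs 9 to 13, the posterior group, held 39.5% of Hox reads in WT (37.6 to 41.4), 1.43% in XiΔXist (0.934 to 2.17), 44.4% in shSCR (40.1 to 48.7) and 44.3% in shYY1 (40 to 48.7). Paralogs 1 to 3 held 6.03%, 18.9%, 8.56% and 6.19%. Within Hoxb alone, where all pools had over 200 reads, paralogs 9 to 13 held 51.7%, 0.355%, 36.2% and 32% in the same order. This group is there Hoxb9 alone, as Hoxb13 had no read in any pool. Hoxb9 also gave 775 of the 983 reads of paralogs 9 to 13 in WT, 96 of 228 in shSCR and 77 of 222 in shYY1. The share over all clusters and the share within Hoxb are thus not independent. The posterior share of XiΔXist lay below the intervals of the other 3 pools by either measure. Those 3 intervals overlapped over all clusters, but within Hoxb the interval of WT (49.1 to 54.2) lay above those of shSCR (30.7 to 42.2) and shYY1 (26.4 to 38.1).

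**Figure D2:**
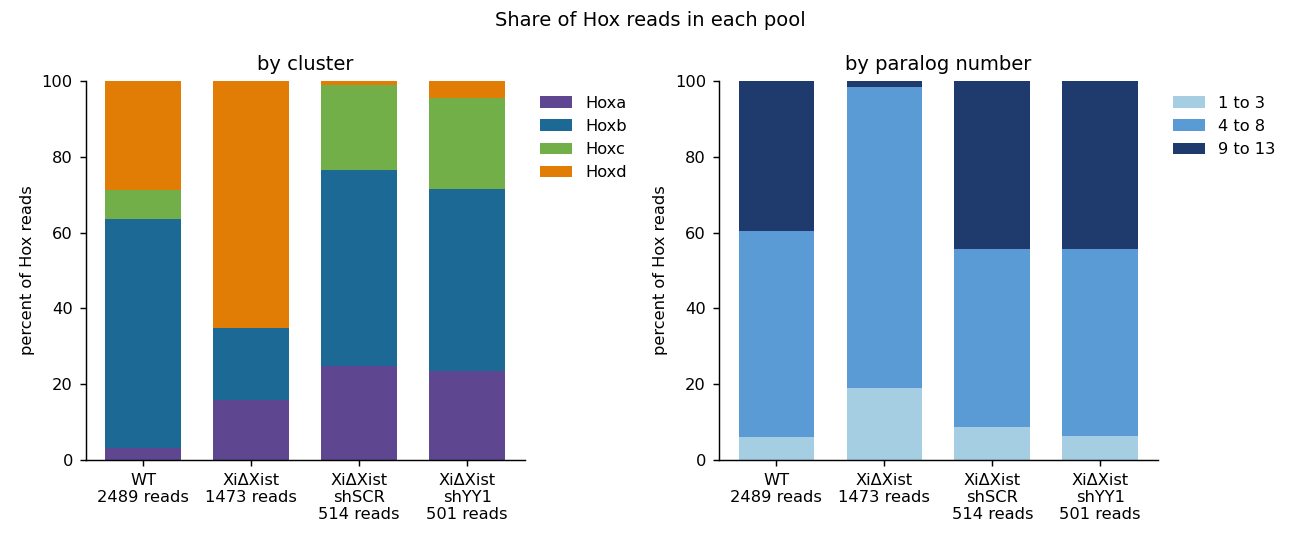
Percent of Hox reads of each pool by cluster (left) and by paralog number (right), bars summing to 100%, with the number of Hox reads under each pool. Paralogs 9 to 13 take 39.5%, 1.43%, 44.4% and 44.3% of the reads in WT, XiΔXist, shSCR and shYY1.

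XiΔXist was compared with WT first, the pair of pools of like depth and read type. A difference was called where the ratio of CPM was at least 2 or at most 0.5 and its exact conditional 95% interval excluded 1, for genes whose reads over the compared pools came to 50 or more. Of the 8 members tested, 1 was called higher, where 4.40% of all 8567 autosomal protein-coding genes tested were. Another 4 were called lower, where 7.69% of all genes were. The median change in either direction was 2.98-fold for these members and 1.23-fold for all genes. The higher member had paralog number 2 and the lower ones had numbers 7 to 10.

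The lower members came from Hoxb, Hoxc and Hoxd. Hoxb9, a gene of trunk vertebral and rib identity, had 775 reads in WT (41.3 CPM) and 1 in XiΔXist (0.0469 CPM), with 96 in shSCR (65.3 CPM) and 77 in shYY1 (52.3 CPM). It was 882 times lower in XiΔXist than in WT (158 to 34896), and 2 of the genes tested, Hoxb9 included, were lower by as much, with genes at 0 taken at 3 reads. The 1 read of Hoxb9 was kept as it was, so that Hoxb9 can rank before a gene at 0. Hoxb7, also a trunk gene, had 484 reads in WT (25.8 CPM), 2 in XiΔXist (0.0937), 53 in shSCR (36) and 41 in shYY1 (27.9). It was 276 times lower in XiΔXist than in WT (75.9 to 2282). Both alleles of both genes were near 0 in XiΔXist: the 129 reads went from 486 in WT to 0 for Hoxb9 and from 343 to 2 for Hoxb7, and the CAST reads from 289 to 1 and from 141 to 0.

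Hoxc10, a gene of lumbar and hindlimb levels, had 128 reads in WT (6.83 CPM), none in XiΔXist, 27 in shSCR (18.4 CPM) and 34 in shYY1 (23.1 CPM). Against the limit of 3 reads it was at least 48.5-fold lower in XiΔXist than in WT. Hoxc10 and Hoxc5 share 166 exon bases, and how reads in shared bases were counted is not given in the sources used here. Hoxd9, a posterior gene of trunk and limb, had 34 reads in WT (1.81 CPM), 18 in XiΔXist (0.843), 0 in shSCR and 2 in shYY1. Its 2.15-fold lower level in XiΔXist (1.18 to 4.04) lay near the limit of the call and fell short of it relative to genes of like GC content (1.94-fold).

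Members under the minimum of 50 reads went the same way as Hoxb9 and Hoxc10 in several cases, and none of them was tested. Hoxc8, with 40, 0, 14 and 22 reads in WT, XiΔXist, shSCR and shYY1, was at least 15.2-fold lower in XiΔXist than in WT. Hoxb5 had 26, 0, 20 and 19 reads and Hoxc9 23, 0, 16 and 23, at least 9.9-fold and 8.7-fold lower. Hoxa10 had 19, 0, 23 and 21 reads, at least 7.19-fold lower. The Hoxd3 reads (25 in WT and 0 in the other 3 pools) lie in a gene that shares 62.8% of its exon bases with neighbours. Hoxb3, an anterior gene, had 34 reads in WT and 6 in XiΔXist, 6.45 times lower (2.68 to 18.8), and shares 52.9% of its exon bases. In XiΔXist, Hoxb5 to Hoxb9 thus had 4 reads in all and Hoxc had none. Summed, paralogs 9 to 13 had 983 reads in WT and 21 in XiΔXist, 53.3 times lower (34.7 to 86.5), and the Hoxc cluster, with 193 and 0, was at least 73.2-fold lower. Hoxb9 gave 775 of the 983 reads and 1 of the 21.

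Hoxa2, which sets the identity of the second pharyngeal arch and the hindbrain, moved the other way. It had 48 reads in WT (2.56 CPM, 1.89 to 3.4), 225 in XiΔXist (10.5 CPM, 9.21 to 12), 8 in shSCR (5.44 CPM) and 2 in shYY1 (1.36 CPM). The level in XiΔXist was 4.12 times that in WT (3 to 5.75), and 147 of the genes tested, Hoxa2 included, were higher by as much. Both alleles were higher, the 129 reads from 18 to 143 (ratio 7.02, 4.29 to 12.2) and the CAST reads from 30 to 82 (2.36, 1.53 to 3.71). Hoxa2 shares 267 of its 1775 exon bases with Gm28308.

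The other 3 members tested were not called. Hoxd8, a trunk gene, had 650 reads in WT (34.7 CPM), 935 in XiΔXist (43.8), 6 in shSCR (4.08) and 17 in shYY1 (11.5), a ratio of 1.26 between XiΔXist and WT (1.14 to 1.4). Hoxb4, active in the neck region and in blood stem cells, had 144, 229, 26 and 36 reads (7.68, 10.7, 17.7 and 24.5 CPM), a ratio of 1.4 (1.13 to 1.73). Hoxb2, a hindbrain gene, had 33, 43, 8 and 8 reads (1.76, 2.01, 5.44 and 5.43 CPM), a ratio of 1.14 (0.71 to 1.86). Hoxd8 and Hoxb4 were above 5 CPM in both untreated pools.

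The promoters of 3 members above 5 CPM in XiΔXist (Hoxa2, Hoxb4 and Hoxd8) and of 2 that had no read there but were read in the hairpin pools (Hoxa9 and Hoxb8) are printed, so that the sequences of the genes read and not read in XiΔXist can be set side by side. Each is the 250 bases before the RefSeq start (GRCm38.p6), on the gene's strand: Hoxa2 chr6:52164832-52165081 (minus), Hoxb4 chr11:96318017-96318266 (plus), Hoxd8 chr2:74704365-74704614 (plus), Hoxa9 chr6:52227371-52227620 (minus) and Hoxb8 chr11:96281655-96281904 (plus). The RefSeq table matched 22 of the 39 members. Capitals mark the letters TGATNNAT on either strand, a core that PBX and HOX proteins bind as partners.
Hoxa2: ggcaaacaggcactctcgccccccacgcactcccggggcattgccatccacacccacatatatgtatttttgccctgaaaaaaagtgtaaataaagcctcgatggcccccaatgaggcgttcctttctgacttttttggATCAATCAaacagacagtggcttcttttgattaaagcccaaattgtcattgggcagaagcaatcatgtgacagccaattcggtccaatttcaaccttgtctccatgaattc
Hoxb4: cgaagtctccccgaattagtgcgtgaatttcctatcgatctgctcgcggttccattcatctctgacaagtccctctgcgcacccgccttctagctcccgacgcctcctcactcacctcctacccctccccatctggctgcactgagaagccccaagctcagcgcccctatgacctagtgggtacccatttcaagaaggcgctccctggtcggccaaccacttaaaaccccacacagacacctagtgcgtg
Hoxd8: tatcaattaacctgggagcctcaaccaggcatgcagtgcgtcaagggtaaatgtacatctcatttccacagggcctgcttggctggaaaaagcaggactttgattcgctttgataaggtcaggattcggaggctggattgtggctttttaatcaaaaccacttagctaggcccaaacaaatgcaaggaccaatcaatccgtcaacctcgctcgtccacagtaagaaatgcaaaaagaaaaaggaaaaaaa
Hoxa9: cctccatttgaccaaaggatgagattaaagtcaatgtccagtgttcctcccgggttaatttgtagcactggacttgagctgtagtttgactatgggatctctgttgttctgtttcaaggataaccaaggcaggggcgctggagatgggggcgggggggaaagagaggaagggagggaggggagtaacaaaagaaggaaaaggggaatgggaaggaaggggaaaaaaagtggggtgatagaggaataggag
Hoxb8: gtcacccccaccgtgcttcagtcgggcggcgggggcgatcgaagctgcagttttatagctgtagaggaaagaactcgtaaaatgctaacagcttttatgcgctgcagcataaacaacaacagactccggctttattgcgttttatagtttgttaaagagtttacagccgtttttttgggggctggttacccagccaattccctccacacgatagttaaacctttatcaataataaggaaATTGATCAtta
Hoxa2 and Hoxb8 hold 1 match each and the others none, where 7.68% of 32851 promoter windows of this length hold one. The YY1 core GCCATNTT, searched on both strands, was in none of the 5, and in 3.91% of all windows. The windows hold 6, 14, 6, 3 and 12 CpG in the order printed, against a median of 12.5 over the 24 Hox windows and 6 over all windows.

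Genes around the clusters were compared in the same way. Of 51 protein-coding genes within 1 Mb outside the clusters and with enough reads, none was called higher in XiΔXist than in WT, where 4.40% of all genes were. Igfbp6 and Myg1, both beside Hoxc and named here after their values were seen, were called lower, where 7.69% of all genes were. With so few genes these counts do not set the neighbours apart from other genes. Igfbp6, an insulin-like growth factor binding protein, had 114 reads in WT and 0 in XiΔXist. The median ratio of the neighbours was 0.922 beside Hoxa, 0.969 beside Hoxb, 0.899 beside Hoxc and 1.17 beside Hoxd, where all genes had 0.944.

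Noncoding genes inside the clusters were read as well. Of 43 such genes, Gm53 and Hoxd3os1 had 50 reads in a pool. Gm53, a long noncoding RNA of the Hoxb cluster (chr11:96251105-96264868), had 204, 2, 89 and 78 reads in the 4 pools, 116 times lower in XiΔXist than in WT (31.7 to 965). Hoxd3os1, antisense to Hoxd3 (chr2:74703248-74716130), had 221, 44, 13 and 12 reads, 5.72 times lower (4.12 to 8.09). The study's methods name no strand option for the counting, so that reads of Hoxd3os1 and of the sense genes it overlaps cannot be told apart.

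Knockdown of YY1 was compared with the scrambled hairpin next. No Hox gene was called: of 6 members tested, 0 were higher (1.69% of all 7451 genes) and 0 lower (1.25%). Hoxa9, a posterior gene known from leukaemia, had 4 reads in WT and none in XiΔXist, 64 in shSCR (43.5 CPM) and 63 in shYY1 (42.8 CPM), a ratio of 0.984 (0.683 to 1.42). Hoxb9 had a ratio of 0.801 (0.586 to 1.09), Hoxb7 of 0.773 (0.501 to 1.18) and Hoxc10 of 1.26 (0.737 to 2.17). Hoxb4 had 1.38 (0.812 to 2.39) and Hoxb6, a trunk gene with 36 and 39 reads, had 1.08 (0.67 to 1.75). The intervals of Hoxa9, Hoxb6, Hoxb7 and Hoxb9 lay within a 2-fold change in either direction, that of Hoxb7 just so, and those of Hoxb4 and Hoxc10 reached above it. Of 50 genes within 1 Mb of the clusters, none was called either.

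The summed Hox level differed by less than counting error between the hairpin pools, with a ratio of 0.974 (0.859 to 1.1). Paralogs 9 to 13 had 228 reads in shSCR and 222 in shYY1, a ratio of 0.973 (0.805 to 1.18). The Hoxd cluster was the exception, with 6 reads in shSCR and 23 in shYY1, a ratio of 3.83 (1.52 to 11.5). Most of these were Hoxd8 (6 and 17 reads, ratio 2.83, 1.07 to 8.77), which lies under the minimum of 50 reads. Hoxa6 also had too few reads to be tested, with 3 in shSCR and 12 in shYY1 (ratio 4, 1.08 to 22.1), and 11 of the 12 came from the 129 allele.

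**Figure D3:**
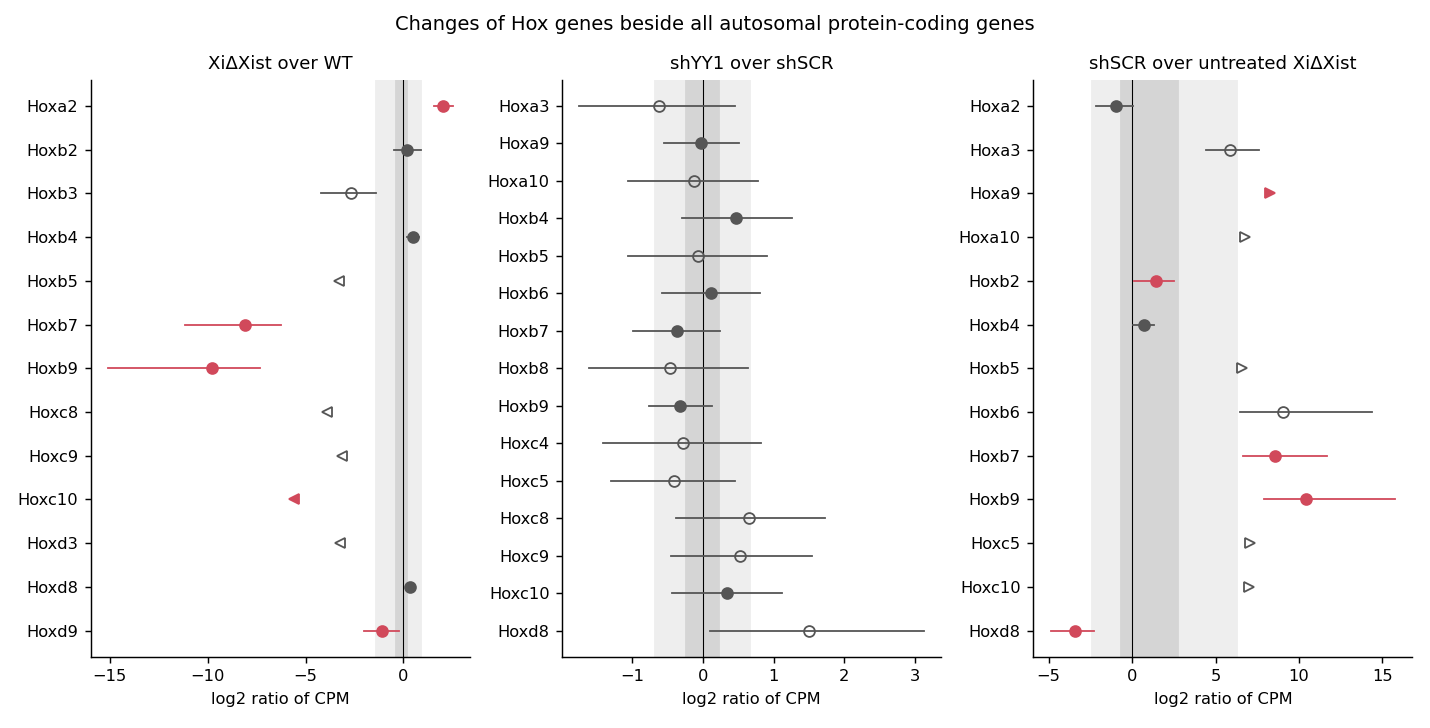
Log2 ratio of CPM for members with at least 20 reads in the pools compared, in 3 comparisons. Circles with lines are ratios with 95% intervals, triangles are bounds at 3 reads, red symbols are called, hollow symbols had under 50 reads, and grey bands hold the middle 50% and 90% of all genes tested. Hoxb7, Hoxb9 and Hoxc10 lie far left of the bands between XiΔXist and WT, no member is called between shYY1 and shSCR, and the bands are wide between shSCR and untreated XiΔXist.

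The scrambled pool was set beside untreated XiΔXist cells, from which it was derived. The libraries differ between them in read length and depth. The cells differ in lentiviral transduction, puromycin and the hairpin, and in any change since the pools were separated. These cannot be told apart. Over all 8645 genes tested, 47.4% were called higher and 19.3% lower in shSCR. The median ratio of all of them was 1.78. The ratio rose with the GC content of the transcript over all genes (Spearman rho 0.71, a description), and over 5 groups of genes of equal number, ordered by GC, the median ratio went from 0.478 in the lowest to 19.3 in the highest. Hox transcripts are GC-rich, with a median of 53.5% against 49% for all autosomal protein-coding genes. Of 7 members tested, 4 were called higher and 1 lower.

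Hoxb9 was 1393 times higher in shSCR than in untreated XiΔXist (244 to 55585), from 1 read at 21342574 to 96 reads at 1470870. Of the genes tested, 8 were higher by as much, Hoxb9 included, with genes at 0 again taken at 3 reads and its 1 read kept. Hoxb7 was 385 times higher (101 to 3258), and Hoxa9, without a read in XiΔXist, was at least 310-fold higher. Hoxb2 was 2.7 times higher (1.1 to 5.81). Hoxd8 went from 935 reads to 6, 10.7 times lower (4.92 to 29.3). Hoxa2 (ratio 0.516, 0.22 to 1.03) and Hoxb4 (1.65, 1.05 to 2.48) were not called. In all, 15 members without a read in untreated XiΔXist had at least 1 in a hairpin pool, although the deepest pool held 14.5 times the reads of the shallowest. The share of all genes that did so is not given here, so this count cannot be set against other genes. The Hoxc cluster went from 0 to 115 reads, at least 556-fold higher, and paralogs 9 to 13 from 21 to 228, 158 times higher (101 to 259). Around the clusters, 32 of 54 genes were called higher and 7 lower, where 47.4% and 19.3% of all genes were.

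Each ratio was then set against the median of the genes in the same GC group, an alternative added after the data were seen. Hoxb9 remained 314 times higher than its GC group (55.1 to 12542), Hoxb7 86.8 times (22.9 to 735) and Hoxa9 at least 172-fold. Hoxd8 was 208 times lower than its GC group (95.1 to 568). Hoxb2 and Hoxb4 turned to 7.17 times and 11.7 times lower, and Hoxa2 became 3.48 times lower. By this measure 3 members were higher (26.8% of all genes) and 4 lower (26.4%). The direction for Hoxb2 and Hoxb4 thus depended on the scale, while Hoxa9, Hoxb7, Hoxb9 and Hoxd8 kept theirs. Hoxb2, Hoxb4 and Hoxd8, at 54.5%, 55.1% and 55.8% GC, lie near the low edge of the highest group (53.8% to 70%). The median ratio was 19.3 in that group and 4.43 in the group below, so the size of their values depends on where the groups were cut. These intervals hold no spread of genes within a group.

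**Figure D4:**
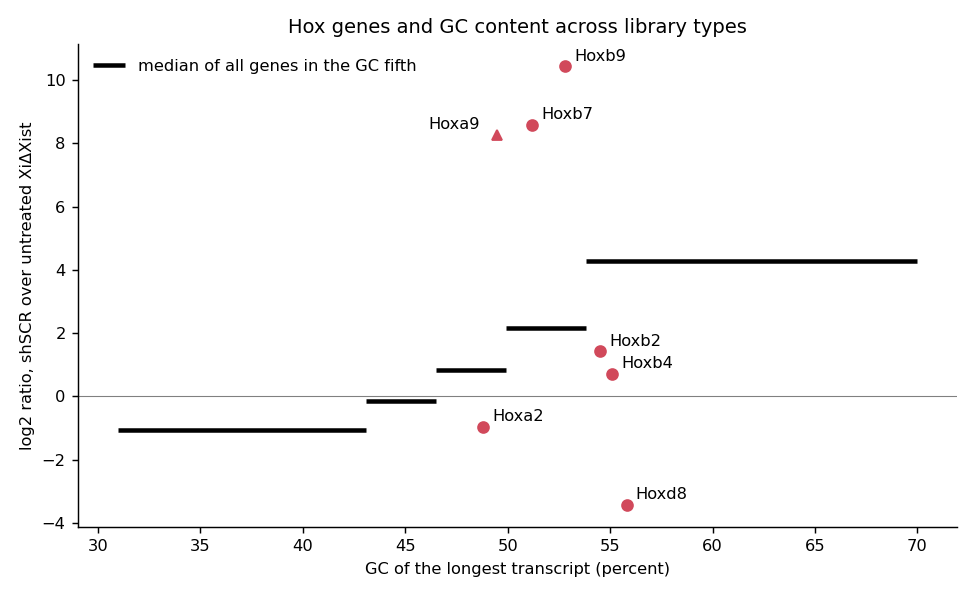
Log2 ratio of CPM, shSCR over untreated XiΔXist, against the GC percent of the longest transcript for the 7 members tested. Black lines are the medians of all genes in each of 5 GC groups, and the triangle is a bound at 3 reads. Hoxa9, Hoxb7 and Hoxb9 lie above the medians and Hoxa2, Hoxb2, Hoxb4 and Hoxd8 below.

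The members absent from both untreated pools were 7: Hoxa5, Hoxa6, Hoxa7, Hoxc4, Hoxc6, Hoxc12 and Hoxc13. They held 42 reads in shSCR, the most in Hoxc4 (17 reads, 11.6 CPM) and Hoxc6 (11 reads, 7.48 CPM). The share of all genes absent in this way is likewise not given. Other members had few reads in the untreated pools and more in the hairpin pools, and were not tested. Hoxb6 had 2 and 1 reads in WT and XiΔXist, with 36 (24.5 CPM) in shSCR and 39 (26.5 CPM) in shYY1. Hoxc5 had 2 and 0, with 28 (19 CPM) and 21 (14.3 CPM). Hoxb8, whose promoter is printed above, had 2 and 0, with 18 (12.2 CPM) and 13 (8.83 CPM). Hoxa3 had 8 and 5, with 20 (13.6 CPM) and 13 (8.83 CPM). The GC content of the Hoxb6 transcript was 54.9%, of Hoxc5 50.8% and of Hoxc4 53.9%. Members with few reads in every pool were Hoxa4 (0, 3, 1 and 4 in WT, XiΔXist, shSCR and shYY1), Hoxd1, Hoxd4 and Hoxd11, with at most 6 reads each.

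The share of reads from the 129 allele asks whether both copies of a cluster were read. It was informative for Hoxa and Hoxb only. In Hoxc and Hoxd every read was of the 129 allele in all pools, and so were 99.7% or more of the reads of the genes within 1 Mb, so no CAST copy can be told there. Genes within 1 Mb of Hoxa had a median 129 share of 48.3% to 55.7% and those near Hoxb of 54.4% to 61.6% over the pools. A change of share was called at 10 percentage points or more with a Newcombe 95% interval excluding 0, with 10 or more reads of the gene required in each pool.

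Hoxb4 was read from both alleles in WT, 112 reads of 129 and 32 of CAST (77.8%, Wilson interval 70.3 to 83.8). In XiΔXist all 229 reads were of 129 (100%, 98.4 to 100), a rise of 22.2 points (16 to 29.7). In shSCR 14 reads were of 129 and 12 of CAST (53.8%) and in shYY1 18 and 18 (50%), so that XiΔXist was the only pool with 1 allele. Hoxa2 changed from 37.5% in WT to 63.6% in XiΔXist, a rise of 26.1 points (10.5 to 39.7). These were 2 of the 5 members compared, where 14.9% of all genes changed. The 5 included Hoxd8 and Hoxd9, in a region read from 129 alone, whose share was fixed at 100%. Between shSCR and untreated XiΔXist, Hoxb4 was the only member with enough reads, with a difference in share of -46.2 points (-64.5 to -28.7), where 24.3% of all genes changed. Between shYY1 and shSCR, 0 of 14 members changed, where 9.77% of all genes did. The 14 included Hoxc4, Hoxc5, Hoxc8, Hoxc9 and Hoxc10, whose share was fixed at 100% in the same way, so this count is informative for Hoxa and Hoxb only.

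The Hoxa cluster was read mostly from 129 in the hairpin pools, at 104 of 128 reads in shSCR and 95 of 117 in shYY1. This was not limited to posterior members: Hoxa3 had 15 of 20 and 10 of 13 from 129. Hoxa2 (2 of 8 and 0 of 2) and Hoxa4 (0 of 1 and 1 of 4) were read mostly from CAST. Hoxa9 had 57 of 64 reads from 129 in shSCR (89.1%, 79.1 to 94.6) and 50 of 63 in shYY1 (79.4%, 67.8 to 87.5). Hoxa10, a gene of lumbar identity and the uterus, had 23 of 23 in shSCR and 21 of 21 in shYY1 from 129, while WT had 1 of 19 (5.26%, 0.935 to 24.6). The WT pool and the hairpin pools thus read opposite alleles of Hoxa10. Hoxb9 stood at 62.7% in WT, 83.3% in shSCR and 92.2% in shYY1, and Hoxb7 at 70.9%, 45.3% and 58.5%. Members of 1 cluster thus differed in their 129 share within a pool. Outside the Hoxa cluster, Snx10, singled out after its values were seen, went from 16.4% of 379 reads in WT to 92.3% of 750 in XiΔXist.

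**Figure D5:**
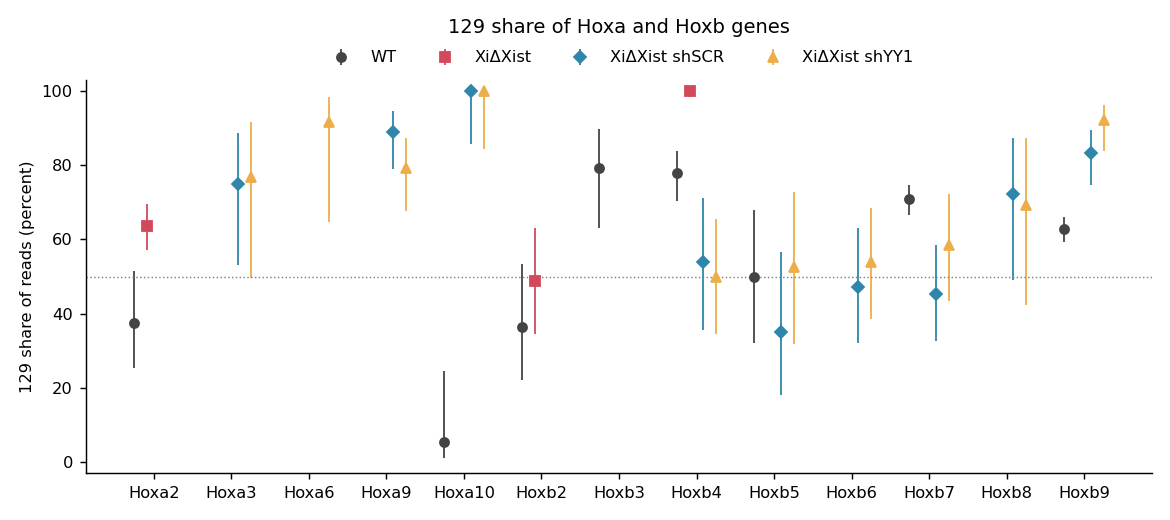
Percent of reads from the 129 allele for Hoxa and Hoxb genes with at least 10 reads in a pool, with Wilson 95% intervals and a dotted line at 50%. Hoxb4 is at 100% in XiΔXist alone, and Hoxa10 is at 5.26% in WT and 100% in both hairpin pools.

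Partners and regulators of Hox genes were read beside them, in lists chosen by role. The TALE homeodomain cofactors, which bind DNA with Hox proteins, numbered 9, of which 7 were tested between XiΔXist and WT. Of these, 0 were higher and Pknox2 was lower, where 4.40% and 7.69% of all genes were. The median ratio was 0.921, where all genes had 0.944. Meis1 stood at 10.2, 7.4, 35.4 and 37.4 CPM in WT, XiΔXist, shSCR and shYY1. Pknox2 had 77 reads in WT and 4 in XiΔXist, 21.9 times lower (8.22 to 82.5). Between shYY1 and shSCR none of the 5 tested was called, where 1.69% of all genes were higher and 1.25% lower. Between shSCR and untreated XiΔXist Meis1, Meis2 and Pknox1, 3 of 6, were higher, where 47.4% of all genes were. Relative to genes of like GC content these 3 were also higher and Pbx2 was lower.

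Polycomb genes, whose products silence Hox clusters, were 17, of which 11 were tested between XiΔXist and WT. Cbx8 was higher (ratio 2.42, 1.6 to 3.74) and Pcgf2 lower (2.09 times, 1.14 to 3.94), with a median ratio of 0.883. Of all genes, 4.40% were called higher and 7.69% lower. Ezh2, the methyltransferase of the complex, stood at 160, 141, 178 and 191 CPM. Cbx2, known to act in axial patterning, stood at 1.01, 1.12, 95.9 and 67.3 CPM. Of 16 Polycomb genes tested between shYY1 and shSCR none was called (median ratio 0.895, all genes 0.989). Between shSCR and untreated XiΔXist, 8 of 14 were higher (Pcgf2, Ezh1, Cbx2, Cbx8, Jarid2, Cbx6, Phc2 and Phc1) and Rnf2 and Suz12 lower, where 47.4% of all genes were higher and 19.3% lower, with a median ratio of 4.31 where all genes had 1.78. Relative to genes of like GC content, 6 of the 14 were higher, where 26.8% of all genes were, and Cbx8 and Rnf2 were lower.

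Of 6 Trithorax genes, which keep Hox genes active, 5 were tested between XiΔXist and WT. Kmt2a was called lower in XiΔXist (2.03 times, 1.64 to 2.52), where 7.69% of all genes were. None of 6 was called between shYY1 and shSCR, where 1.69% of all genes were higher and 1.25% lower. In shSCR 5 of 6 were higher than in untreated XiΔXist (Men1, Wdr5, Kmt2b, Ash2l and Kmt2a), where 47.4% of all genes were. These 5 were also higher relative to genes of like GC content, where 26.8% of all genes were. Of 11 upstream regulators, which include the Cdx and retinoic acid genes, 3 could be tested between XiΔXist and WT and 0 were called. Gdf11, Rara, Rarg and Nr6a1, the 4 tested, were higher in shSCR than in untreated XiΔXist, where 47.4% of all genes were. None of these 4 was called between shYY1 and shSCR, where 1.69% of all genes were higher and 1.25% lower. Relative to genes of like GC content, Nr6a1 and Rarg were higher, Rara was lower and Gdf11 was not called. Gmnn, the gene of Geminin, was called in no comparison.

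Genes that mark limb type were at 0 in every pool: Tbx5 of the forelimb, and Tbx4 and Pitx1 of the hindlimb. The Evx genes at the ends of Hox clusters and the ParaHox genes Pdx1, Gsx1 and Gsx2 were also at 0 throughout. For each, the upper bound per pool is that given above for a gene without a read.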

How the data were processed

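Allele-specific RNA-seq of 8 samples of female MEFs in 4 groups was analysed. The deposited values are raw counts, per allele and Ensembl gene, that the authors made by pooling the 2 samples of a group, aligning to a GRCm38 (mm10) genome masked at strain differences, removing reads of low mapping quality, splitting reads by allele and counting over exons with featureCounts 1.6.3. The untreated libraries had shorter paired reads than the hairpin libraries, and the study's methods name no strand option for the counting. No column was left unused.

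Symbols, positions and exons came from GENCODE M21, which matched 45143 of 46078 IDs, and GC content from the longest transcript. Of the Hox genes, 16 share exon bases with another gene. CPM were computed from autosomal reads of both alleles. Since columns are pooled, no p-value was computed. Ratios carry exact conditional (Clopper-Pearson) 95% intervals, shares Wilson intervals and differences of shares Newcombe intervals. The calls were tried on counts simulated with counting error alone. That cannot show how often spread between samples, clones or PCR copies leads to a call. Every member with at least 50 reads in a pool is named with its values or counted, and the others by range. List genes are named where called or defining for their list. Some genes are not reported here. Hox genes and the lists were taken up as a subject with earlier results of these data known, although membership follows from the symbol. Read minimums, folds, scalings, single alleles, CPM limits, overlapping genes and GC content were varied. Computation used Python 3.11.15 with numpy 2.4.6, scipy 1.17.1, pandas 2.3.3 and matplotlib 3.10.9.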

Additional observations from a re-analysis of the deposited data

How the results depend on the processing

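No paired analysis was possible because the deposited columns pool the samples of a group, and no sample could be left out for the same reason. Between XiΔXist and WT, the members called lower numbered 9 at a minimum of 20 reads, 2 at 200, 10 with no minimum and 2 in CAST reads alone, and those called higher 0 without members that share exon bases. Between shYY1 and shSCR, 1 member was higher at a minimum of 20 reads and 2 with no minimum. Between shSCR and untreated XiΔXist, members called higher numbered 10 at a minimum of 20 reads, 0 at 200, 20 with no minimum, 2 in 129 reads alone, 0 in CAST reads alone and 2 without members that share exon bases. Those called lower numbered 2 with all allelic reads as total, with a median of ratios or in 129 reads alone, 0 in CAST reads alone and 4 relative to GC content. Relative to GC content the ratio of Hoxb2 reversed to 0.14 and that of Hoxb4 to 0.0852. For that comparison, relative to GC content, 2 upstream regulators were called higher and 1 lower, and 1 TALE cofactor lower, a check chosen after seeing the data. At a limit of 10 CPM, 3, 1, 7 and 6 members were above in WT, XiΔXist, shSCR and shYY1.

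Without members that share exon bases, Hoxa held 0.874%, 0%, 9.79% and 10.8% of Hox reads in these pools, Hoxb 64.7% in WT, 70% in shSCR and 63.4% in shYY1, Hoxc 2.9% in WT, 18.3% in shSCR and 20% in shYY1, Hoxd 31.5% in WT and 80.4% in XiΔXist, and paralogs 9 to 13 38.5% in shYY1. Members with a changed 129 share between XiΔXist and WT numbered 1 at a minimum of 100 reads or without those members, and between shSCR and untreated XiΔXist 0 at 30 or 100 reads. The other 81 alternative values of these results stayed within 1.5 times of the reported count or within its interval. The shift with a read minimum follows from the fewer or more genes tested, and the cause of the others was not tested. The hairpin pools limit what can be seen of members under 2.04 CPM.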
